A study of Arabidopsis thaliana with 15 samples.

Results

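The transcriptomes of Arabidopsis thaliana hypocotyl explants (ecotype Col-0) at 27 °C and at 17 °C were compared on shoot-inducing medium (SIM), over all genes of the deposited count table. The comparison takes 6 of the 15 RNA-seq libraries of the series, 3 labelled 27 °C and 3 labelled 17 °C, and 20704 of the 33602 genes in the table had enough counts to be tested. The series asks how temperature affects hormone-induced shoot regeneration. Explants in all 6 libraries were cut from 7-day-old seedlings that had grown in the dark at 22 °C, and all were then kept in continuous light. They spent 4 days on callus-inducing medium (CIM, with 2,4-D at 0.5 mg/L as auxin and kinetin at 0.1 mg/L as cytokinin) and 4 further days on SIM (with 2-iP at 0.5 mg/L as cytokinin and IAA at 0.15 mg/L as auxin). Each library was made from the RNA of about 100 explants. A library carries a single temperature label for both media, so temperature during CIM and temperature during SIM cannot be told apart here. The 9 other libraries (3 after CIM at 27 °C, 3 after CIM at 17 °C and 3 explants at 0 h) entered the same fit.

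Shoots form from hypocotyl explants in steps. On auxin-rich medium, cells next to the vascular strands divide into a callus that expresses regulators of lateral root primordia. On cytokinin-rich medium, some of these cells then switch on WUSCHEL (WUS), set up boundaries through the CUC genes and form shoot meristems kept by SHOOT MERISTEMLESS (STM). Warmth and cold each act through known regulators as well: heat shock factors switch on chaperones when proteins misfold, PIF proteins carry warmth signals to growth genes, and CBF factors switch on cold-protective genes.

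Total counts were 4319405, 4140425 and 4199922 in the libraries at 27 °C and 4159645, 3679115 and 4037643 in those at 17 °C. Levels are stated as CPM, which are counts scaled to 1000000 per library after the TMM adjustment of edgeR. A log2 fold change is 27 °C over 17 °C with a standard error after ±. That error was derived from edgeR's test, as the absolute log2 fold change divided by the square root of the F statistic. It therefore restates the test and is not a separate estimate of spread. A mean CPM carries its SD after ± (n = 3 libraries). Where 1 group held 1 to 3 counts, the ratio of the higher group to the lower is given with a 95% counting interval, and where it held none, a bound against 3 counts over the group; both cover counting error only, since reads copied by PCR are not independent molecules. A gene is called where edgeR's quasi-likelihood test gave an adjusted p of at most 0.05 (Benjamini and Hochberg over all genes tested), and "rose" and "fell" are used only of called genes. The labels do not say whether libraries of a group came from separate cultures, and a p-value here reflects library-to-library spread alone, which may be technical. Over genes with at least 20 counts in a pair of libraries, libraries of a group differed by less than counting noise in all 6 pairs, with a chi-square per gene of 0.701 to 0.863. The mean ratio of variance to mean was 1.08 for genes below 0.01 counts per exon base, 0.635 at 0.1 to 0.2 and 1.28 at 0.4 or more. The median absolute log2 fold change in these ranges was 1.01, 0.128 and 0.124. Whether each position of a gene was counted once is not given, so changes of densely read genes may be understated. The cause of this pattern was not tested. Each pair still had 1 to 13 genes that differed past an adjusted p of 0.05 in that chi-square test, and all 6 libraries were kept as separate samples. In this bulk RNA, fewer cells of a type and less RNA per cell cannot be told apart. The sources used here do not give how reads that fit several places were handled, so the division of counts among close paralogs (small heat shock proteins, LHCB1, RBCS, PAL, GH3, XTH, LBD and extensin genes, among others) is uncertain. Use of strand is not given either, so a gene's count may hold reads of a gene that overlaps it. Of 10 seed storage genes, none passed the filter for testing, and their summed level was 0 to 0.670 CPM at 27 °C and 0 to 0.707 CPM at 17 °C. Genes of the procambium and phloem, which mark the vascular strands of a hypocotyl, summed to 2990.1 to 3006 CPM at 27 °C and 3073 to 3174 CPM at 17 °C.

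Of the 20704 genes, 9037 were called (43.6%), 4294 of them higher (20.7%) and 4743 lower (22.9%) at 27 °C. At least a 2-fold difference was found for 2505 of them (12.1%), with 900 higher (4.35%) and 1605 lower (7.75%). The median log2 fold change of all genes tested was 0.00. These shares are the background for every gene group below: a gene group is read here against them, by its counts and its median. The plot of called members by gene group places small heat shock proteins, photosystem genes, organelle chaperones and leaf polarity genes at the end with most members higher. The stomatal genes also lie at that end, but only 4 of their 14 members were tested. The filter could favour members high at 27 °C, so the share of these 4 is not read as that of the whole group. The suberin, Casparian strip, lignin, secondary wall, root cap and cold response genes lie at the end with most members lower.

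**Figure D1:**
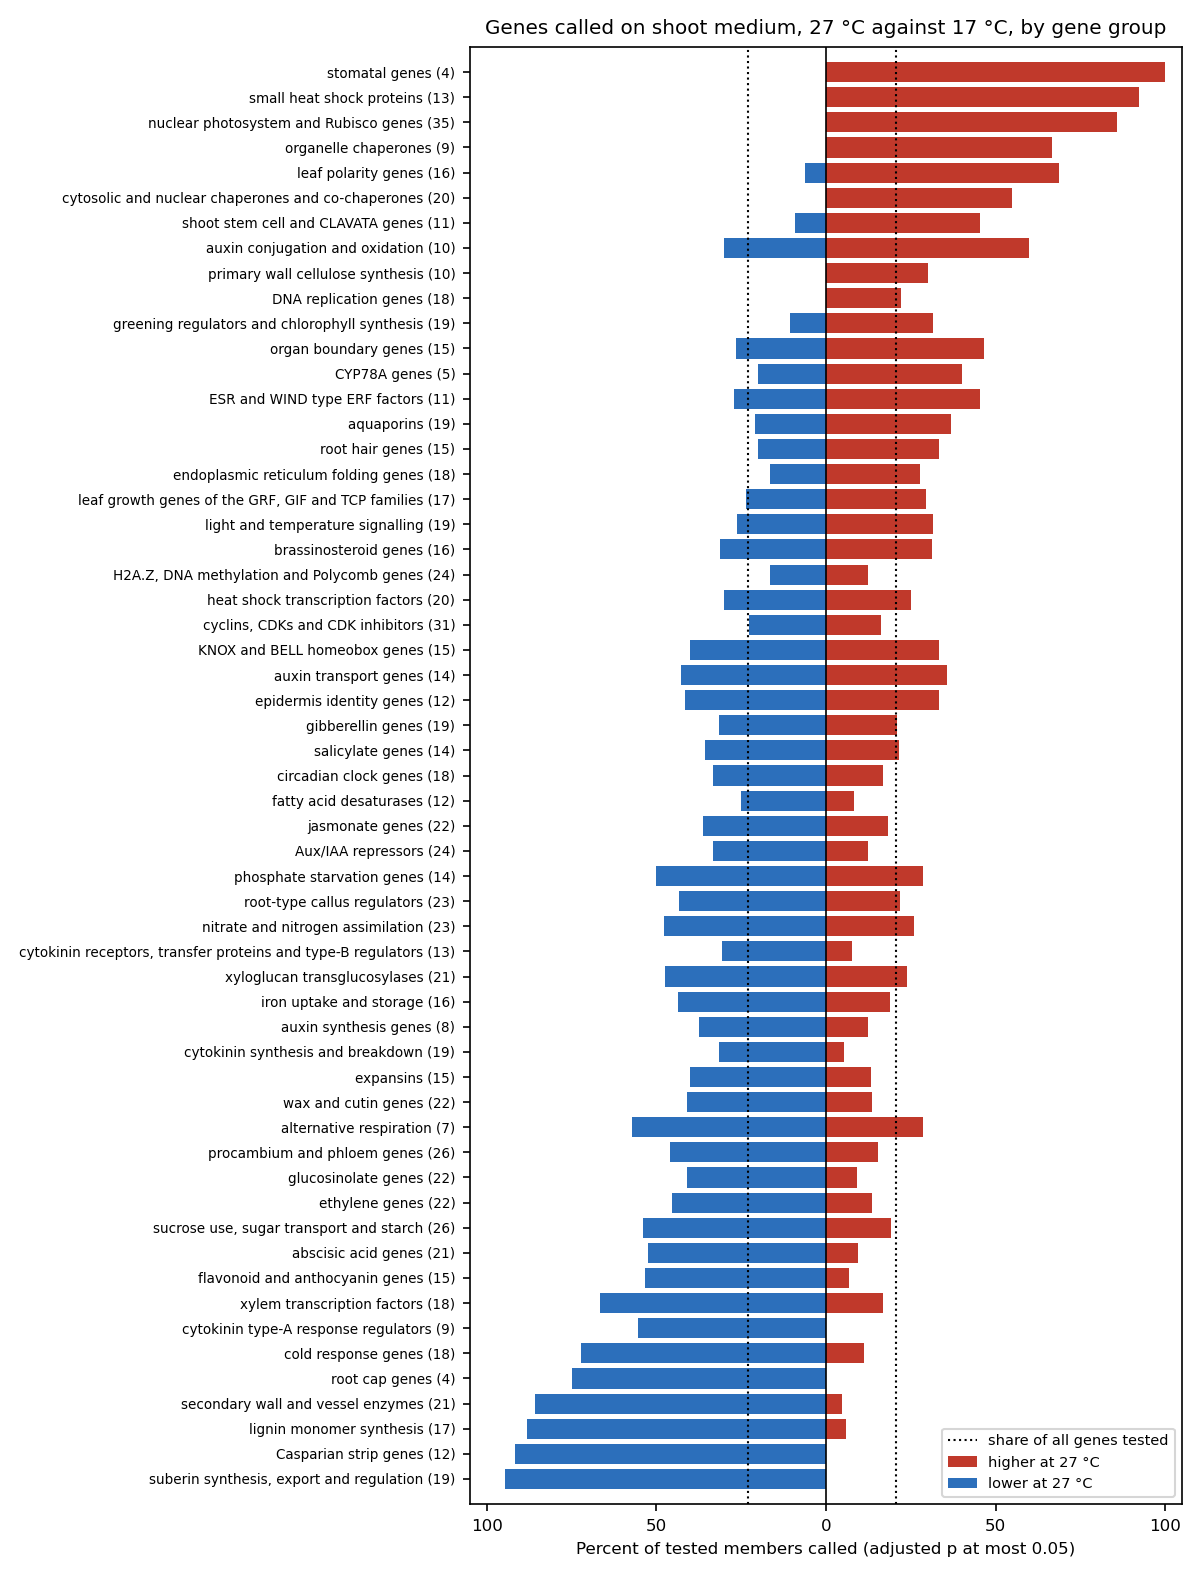
Percent of the tested members of each gene group called higher (right, red) or lower (left, blue) at 27 °C, with the number of members tested in brackets and dotted lines at the shares over all genes tested, 20.7% higher and 22.9% lower. Photosystem genes and small heat shock proteins lie far beyond the dotted line on the right, and suberin, Casparian strip and lignin genes far beyond it on the left.

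Among the 12 largest rises were several regulators of shoot organs. LSH2 (AT3G04510; chromosome 3, 1215636 to 1216958), an ALOG protein of organ boundaries, had 19.4, 18.24 and 19.3 CPM at 27 °C, against 0, 0.270 and 0.244 CPM at 17 °C. Its count over the group was 249 at 27 °C and 2 at 17 °C, a ratio of 114 times (95% counting interval 31.3 to 949.9). On CIM it was near 0 at both temperatures, with 0.374 ± 0.349 CPM at 27 °C and 0.0803 ± 0.139 CPM at 17 °C. AT5G11930 (chromosome 5, 3844940 to 3845645), annotated as a thioredoxin superfamily protein, had 8.27, 4.91 and 9.19 CPM at 27 °C and no count at 17 °C, which makes it at least 30.0-fold higher. It too was near 0 on CIM, with 0 ± 0 CPM at 27 °C and 0.0803 ± 0.139 CPM at 17 °C. Also among the 12 were the mitochondrial small heat shock protein HSP23.6-MITO and TIM17-1 (AT1G20350; chromosome 1, 7043713 to 7044592), a subunit of the translocase of the inner mitochondrial membrane. TIM17-1 had 5.36, 7.25 and 6.44 CPM at 27 °C, against 0.236, 0 and 0.244 CPM at 17 °C, a ratio of 38.1 times (95% counting interval 10.2 to 320.1). IDH-III, annotated as an isocitrate dehydrogenase, rose by 5.27 ± 0.35 on the log2 scale, with means of 17.2 ± 0.670 CPM at 27 °C and 0.401 ± 0.371 CPM at 17 °C. The transcription factor gene bZIP58 rose by 5.27 ± 0.39, with 15.6, 12.4 and 13.8 CPM at 27 °C, against 0.236, 0.540 and 0.244 CPM at 17 °C. The other members of this set were STM, CYP78A5 and 4 genes named in the table only by an identifier and an annotation: AT1G78750 (F-box), AT3G28570 (P-loop hydrolase), AT1G07440 (Rossmann fold) and AT1G52000 (mannose-binding lectin). HSP23.6-MITO, AT1G78750 and AT1G07440 rose on CIM too, by 4.11 ± 0.34, 5.07 ± 0.40 and 1.98 ± 0.61. IDH-III and TIM17-1 had 1.69 ± 0.181 and 1.18 ± 0.543 CPM on CIM at 27 °C and no count at 17 °C, and were called there. Of these, only AT1G07440 was called as different between the media. The rest of the set was near 0 on CIM at both temperatures.

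The 12 largest falls were of a different kind, and most had no count at all at 27 °C. AT1G30730 (chromosome 1, 10900854 to 10902534), annotated as an FAD-binding berberine bridge type enzyme, had 0, 0.234 and 0.460 CPM at 27 °C, against 92.9, 94.8 and 84.3 CPM at 17 °C, a ratio of 395 times (95% counting interval 135 to 1920.2). On CIM the same gene stood at 82.2 ± 7.84 CPM at 27 °C and 174 ± 5.71 CPM at 17 °C. AT1G36630 and AT4G06566, both annotated as uncharacterized proteins, had no count at 27 °C and 19.6, 18.9 and 24.4 CPM and 21.0, 16.2 and 22.7 CPM at 17 °C. They were at least 91.8-fold and 87.8-fold lower at 27 °C. On CIM, AT1G36630 had 0.750 ± 0.442 CPM at 27 °C and 1.29 ± 0.504 CPM at 17 °C. SOM (AT1G03790; chromosome 1, 954525 to 956097), a zinc finger regulator of seed germination in light, had 0, 0.234 and 0 CPM at 27 °C, against 24.99, 22.4 and 16.6 CPM at 17 °C, a ratio of 279.7 times (95% counting interval 49.8 to 11089). SBT5.4, a subtilase, and LAS1, lanosterol synthase, had no count at 27 °C and were at least 33.7-fold and 27.6-fold lower. GH9B15, a glycosyl hydrolase, had no count at 27 °C and 6.602, 11.1 and 6.59 CPM at 17 °C, at least 34.8-fold lower. The extensin-like gene ELP and the acyltransferase gene AT2G25150 were abundant in the starting explants, where ELP stood at 168 ± 6.69 CPM and AT2G25150 at 139 ± 7.34 CPM at 0 h. After SIM both had no count at 27 °C, against 8.49, 7.02 and 5.86 CPM and 8.25, 5.13 and 5.37 CPM at 17 °C. The rest of the 12 were the cold gene KIN1 and AT1G35050 and AT3G48510, which the table names only by an identifier.

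Regulators of the shoot stem cell niche were higher at 27 °C in part. Of 11 tested members of the stem cell and CLAVATA group, 5 rose and 1 fell, with a median log2 fold change of 0.12. WUS, the homeodomain factor of the organising centre, had 16.5, 11.9 and 15.401 CPM at 27 °C, against 5.89, 4.59 and 5.37 CPM at 17 °C, and CLV1, the receptor kinase that restrains it, had 33.5, 32.5 and 36.8 CPM at 27 °C, against 18.4, 17.01 and 17.83 CPM at 17 °C. Both sets of values lay apart, and the genes rose by 1.46 ± 0.21 and 0.95 ± 0.10 on the log2 scale (edgeR adjusted p = 2.7e-06 and 4e-09). The CLAVATA co-receptor genes CRN and RPK2 rose by 0.23 ± 0.05 and 0.21 ± 0.05. The receptor kinases BAM1 and BAM3, which bind related peptides, had log2 fold changes of -0.04 ± 0.03 and 0.00 ± 0.03 and were not called. HAM3, a GRAS-domain partner of WUS, fell by 0.71 ± 0.08, and its relative HAM2 was not called at -0.11 ± 0.05. Among 15 KNOX and BELL homeobox genes, 5 rose and 6 fell. STM had 6.70, 6.31 and 7.59 CPM at 27 °C, against 0, 0.270 and 0 CPM at 17 °C. The BELL proteins that pair with STM, BLR and ATH1, rose by 1.02 ± 0.09 and 1.38 ± 0.26, and KNAT2, a class I KNOX gene of the meristem, rose by 0.80 ± 0.15. The 2 homeobox genes known to act together on secondary walls in xylem fibres, KNAT7 and BLH6, fell by 1.38 ± 0.11 and 1.53 ± 0.14, with 13.4, 10.99 and 13.1 CPM at 27 °C, against 31.6, 32.9 and 33.5 CPM at 17 °C for KNAT7. KNAT1, the class I gene of internodes, had a log2 fold change of -0.07 ± 0.05 and was not called.

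Boundary genes split in the same comparison. Of 15 tested members, 7 rose and 4 fell. CUC3, a NAC factor that separates organs, had 4.47, 6.08 and 7.59 CPM at 27 °C, against 0.943, 0.270 and 0.733 CPM at 17 °C, without overlap, and rose by 3.12 ± 0.45 (edgeR adjusted p = 8.9e-07). LSH4, the ALOG gene downstream of CUC1, rose by 4.90 ± 0.35, while LSH3 and LSH6 had log2 fold changes of 0.08 ± 0.08 and 0.14 ± 0.06. LAS, a GRAS factor of axillary meristems, fell by 0.78 ± 0.11, and the MYB genes RAX1 and RAX2, known from the same meristems, fell by 1.63 ± 0.14 and 0.98 ± 0.10. Their relative RAX3, named after its values were seen, was not called at -0.22 ± 0.46. RAX2 had 15.42, 16.1 and 17.01 CPM at 27 °C, against 30.4, 34.6 and 31.3 CPM at 17 °C. LOB, a boundary gene of the LBD family, fell by 1.102 ± 0.27. The CYP78A cytochromes P450, which promote organ growth from the boundary and periphery, also differed among themselves. CYP78A7 had 4.25, 3.04 and 6.44 CPM at 27 °C, against 0, 0.540 and 0.244 CPM at 17 °C, a ratio of 18.4 times (95% counting interval 5.99 to 91.6), CYP78A5 rose by 5.73 ± 0.28, CYP78A9 fell by 0.70 ± 0.24, and CYP78A6 was not called at -0.48 ± 0.47. Of 11 factors of the ESR and WIND type, which drive regeneration and wound responses, 5 rose and 3 fell. ERF115 and LEP rose by 0.62 ± 0.12 and 0.58 ± 0.09. ESR1 had 12.5, 12.6 and 15.2 CPM at 27 °C, against 10.4, 11.1 and 13.7 CPM at 17 °C, and its log2 fold change of 0.20 ± 0.18 was not called. Rap2.6L, which is known from regeneration on shoot medium, fell by 0.30 ± 0.04. PUCHI, a factor of lateral root and floral primordia, fell by 2.95 ± 0.51, with 0.447, 0.935 and 0 CPM at 27 °C, against 3.301, 3.78 and 4.15 CPM at 17 °C.

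**Figure D2:**
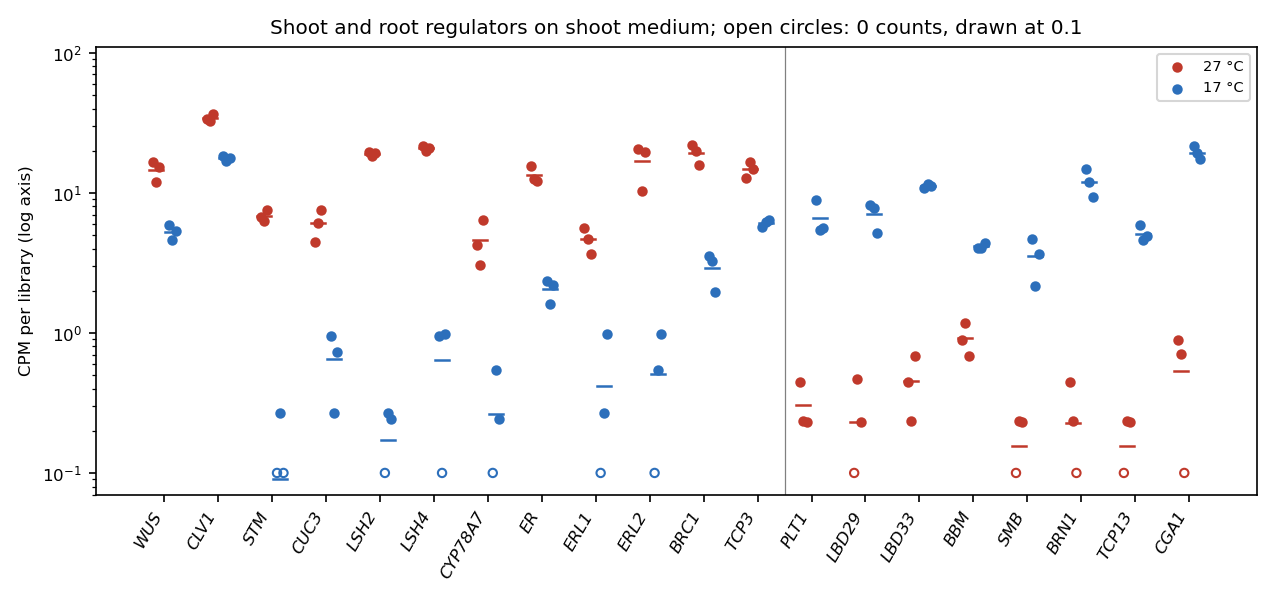
CPM of 20 regulators in each library at 27 °C (red, left of each pair) and at 17 °C (blue), on a log axis, with the group mean as a bar and 0 counts as open circles drawn at 0.1. In the 12 genes left of the grey line all 3 libraries at 27 °C lie above all 3 at 17 °C, and in the 8 genes right of it they lie below. The 20 genes are a selection. Members of the same lists that went the other way or were not called, such as HAM3, RAX2, LBD16 and SHR, are not shown.

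Regulators of root identity that callus expresses were called in both directions, lower at 27 °C more often than higher. Of 23 tested members, 5 rose and 10 fell, and 9 of the falls were at least 2-fold. LBD33 and LBD29, LBD factors of lateral root initiation downstream of auxin, had 0.447, 0.234 and 0.690 CPM at 27 °C, against 10.8, 11.6 and 11.2 CPM at 17 °C (LBD33), and 0, 0.468 and 0.230 CPM at 27 °C, against 8.25, 7.83 and 5.13 CPM at 17 °C (LBD29). All values at 27 °C lay below all values at 17 °C. LBD33 fell by 4.52 ± 0.33, and LBD29 differed by a ratio of 30.8 times (95% counting interval 10.2 to 152). Their relative LBD16 went the other way and rose by 0.82 ± 0.16, with 14.97, 14.5 and 14.7 CPM at 27 °C, against 5.66, 9.18 and 10.3 CPM at 17 °C. The PLETHORA factors differed too: PLT1 and BBM fell by 4.33 ± 0.43 and 2.14 ± 0.41, PLT5 and PLT7 rose by 0.20 ± 0.06 and 0.42 ± 0.07, and AIL6 was not called at -0.14 ± 0.07. WOX5, the stem cell factor of the root tip, had 2 counts over the libraries at 27 °C and 10 at 17 °C, a ratio of 5.44 times (95% counting interval 1.16 to 51.1). SHR and WOX11 had log2 fold changes of 0.08 ± 0.05 and 0.10 ± 0.06 and were not called. The summed level of the whole list was nearly the same in both groups, 843 to 861 CPM at 27 °C and 859 to 889 CPM at 17 °C.

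Root cap genes mark a tissue that is no part of a hypocotyl. Of 5 such genes, 4 were tested and 3 fell, with a median log2 fold change of -3.302, or -3.63 with the members of few counts at their count ratio. Their summed level was 1.34 to 2.105 CPM at 27 °C and 18.6 to 27.4 CPM at 17 °C. BRN1, a NAC factor of root cap maturation, had 0.447, 0.234 and 0 CPM at 27 °C, against 14.9, 11.9 and 9.28 CPM at 17 °C, a ratio of 52.6 times (95% counting interval 17.64 to 258). SMB, its relative, had 2 counts over the libraries at 27 °C and 43 at 17 °C. AT1G65570, a root cap polygalacturonase, fell by 2.31 ± 0.34. FEZ, the NAC factor of root cap stem cells, had 1 count at 27 °C and 6 at 17 °C and was not called. The part of these root cap transcripts in the falls of other root and endodermis genes was not tested.

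Root hair genes showed no common direction. Of 15 tested, 5 rose and 3 fell, and the summed level was 481 to 575 CPM at 27 °C and 414 to 493 CPM at 17 °C. The expansin genes EXPA7 and EXPA18 and the wall protein gene LRX1, all known from growing hairs, rose by 0.58 ± 0.13, 0.93 ± 0.14 and 0.67 ± 0.13. RHD6, the bHLH factor that starts hairs, rose by 0.96 ± 0.14. RHD2, the NADPH oxidase of hair tips, fell by 0.95 ± 0.13, with 27.04, 35.8 and 23.0 CPM at 27 °C, against 59.9, 55.6 and 49.8 CPM at 17 °C. WER, the MYB factor of hairless cells, had 1 count at 27 °C and 34 at 17 °C, a ratio of 37.0 times (95% counting interval 6.21 to 1504), and CPC, the MYB that moves into hair cells, fell by 0.88 ± 0.20.

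Genes that give leaves an upper and a lower side were higher at 27 °C more often than lower. Of 16 tested, 11 rose and 1 fell, with a median log2 fold change of 0.24. ARF4 and KAN2, factors of the lower side, rose by 0.50 ± 0.04 and 0.50 ± 0.10, with 139, 140.1 and 136 CPM at 27 °C, against 98.3, 94.5 and 101 CPM at 17 °C for ARF4. The small zipper proteins ZPR3 and ZPR4, which hold back class III HD-ZIP factors of the upper side, rose by 0.62 ± 0.16 and 0.53 ± 0.15. The HD-ZIP genes PHB and PHV themselves were not called, at 0.03 ± 0.04 and 0.06 ± 0.04, and KAN1 fell by 0.46 ± 0.14. YAB3, a factor of the lower side, had 15 counts over the libraries at 27 °C and 2 at 17 °C.

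In the TCP, GRF and GIF families, 5 of 17 tested genes rose and 4 fell. BRC1, the TCP factor that arrests axillary buds, had 21.9, 19.9 and 15.9 CPM at 27 °C, against 3.54, 3.24 and 1.95 CPM at 17 °C, without overlap, and rose by 2.71 ± 0.22 (edgeR adjusted p = 1.6e-11). Its relative BRC2 was not called at -0.21 ± 0.20. The CIN type TCP genes, which limit leaf growth, split: TCP3 and TCP24 rose by 1.27 ± 0.18 and 0.68 ± 0.09, and TCP2 fell by 1.33 ± 0.26. TCP13 of the same type had 0, 0.234 and 0.230 CPM at 27 °C, against 5.89, 4.59 and 4.88 CPM at 17 °C, a ratio of 33.7 times (95% counting interval 8.95 to 285). The coactivator GIF1 fell by 1.31 ± 0.09, with 28.4, 24.1 and 22.1 CPM at 27 °C, against 62.7, 60.5 and 61.3 CPM at 17 °C, while GIF3 rose by 0.41 ± 0.11 and GRF1 fell by 0.39 ± 0.10.

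Of 14 stomatal genes, 4 passed the filter for testing, which used the libraries of all 5 groups. A gene near 0 at 17 °C on SIM passes only through its counts in another group, such as 27 °C on SIM. The 3 receptor kinases of the ERECTA family, which act in stem growth as well as in stomatal spacing, moved together. ER had 15.6, 12.6 and 12.2 CPM at 27 °C, against 2.36, 1.62 and 2.198 CPM at 17 °C, ERL1 had 5.59, 4.68 and 3.68 CPM at 27 °C, against 0, 0.270 and 0.977 CPM at 17 °C, and ERL2 had 20.6, 10.3 and 19.5 CPM at 27 °C, against 0, 0.540 and 0.977 CPM at 17 °C. No library at 27 °C fell within the range at 17 °C for any of them, and the log2 fold changes were 2.68 ± 0.24, 3.39 ± 0.55 and 4.99 ± 0.48. SCRM2, a bHLH factor of the stomatal lineage, rose by 1.08 ± 0.35. The summed level of all 14 members was 31.8 to 47.2 CPM at 27 °C and 7.07 to 9.52 CPM at 17 °C, and 3 members had no count at 27 °C and 4 none at 17 °C.

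Small heat shock proteins and cytosolic chaperones were higher at 27 °C wherever they were called. Of 13 tested small heat shock proteins, which hold unfolding proteins in solution, 12 rose and 0 fell, with a median log2 fold change of 1.15, and 8 rose at least 2-fold. Their summed level was 235 to 248 CPM at 27 °C and 113 to 119 CPM at 17 °C. Heat shock elements are the sites that heat shock factors recognise, arrays of GAA and TTC blocks spaced by 2 bases. The array of 3 blocks (GAANNTTCNNGAA, or its reverse complement TTCNNGAANNTTC) was searched on both strands in the 250 bases before the start of 27443 genes (RefSeq annotation, TAIR10.1 assembly). It was found in 0.386% of all of them and before 2 of the 14 small heat shock protein genes of the list (14.3%), AT1G53540 and HSP17.4. These 2 promoters are shown because they hold the array (HSP17.4 was chosen for this after its values were seen), with it in capitals, each in the direction of its gene. AT1G53540 lies on the plus strand (chr1:19980049-19980298) and HSP17.4 on the minus strand (chr3:16984868-16985117).
AT1G53540: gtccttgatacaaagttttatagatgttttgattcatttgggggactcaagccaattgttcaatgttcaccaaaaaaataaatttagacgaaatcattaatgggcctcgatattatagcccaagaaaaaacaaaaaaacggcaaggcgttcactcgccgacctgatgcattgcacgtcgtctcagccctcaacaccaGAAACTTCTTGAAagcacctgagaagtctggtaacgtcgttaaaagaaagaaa
HSP17.4: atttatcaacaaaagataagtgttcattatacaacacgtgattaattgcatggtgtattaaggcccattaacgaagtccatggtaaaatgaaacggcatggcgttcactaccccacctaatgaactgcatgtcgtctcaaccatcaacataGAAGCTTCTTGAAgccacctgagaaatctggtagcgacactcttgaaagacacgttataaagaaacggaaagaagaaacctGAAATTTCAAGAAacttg
The array begins 53 bases before the start of AT1G53540. HSP17.4 holds it 2 times, and the nearer one begins 18 bases before the start. AT1G53540, a cytosolic class I protein, had 8.72, 8.89 and 10.11 CPM at 27 °C, against 0.472, 1.08 and 0.977 CPM at 17 °C, and the groups lay far apart. It rose by 3.43 ± 0.33, and HSP17.4, also of the cytosolic class, rose by 1.09 ± 0.12, with means of 23.2 ± 2.56 CPM at 27 °C and 10.9 ± 1.32 CPM at 17 °C. The shorter array of 2 blocks was present before 7 of the 14 genes (50%), against 16.1% of all promoters. Before the 20 cytosolic and nuclear chaperone genes it was found in 3 cases (15%), and the array of 3 blocks in 0. Letters that match are a description of the sequence only.

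The small heat shock proteins of mitochondria were among the largest rises. HSP23.6-MITO had 5.14, 5.38 and 4.37 CPM at 27 °C, against 0.236, 0 and 0 CPM at 17 °C, a ratio of 59.7 times (95% counting interval 10.3 to 2395), and AT5G51440, its relative, had 74.6, 75.3 and 69.7 CPM at 27 °C, against 15.3, 14.04 and 13.4 CPM at 17 °C. AT5G51440 rose by 2.35 ± 0.09 (edgeR adjusted p = 7.1e-21). HSP22.0, of the endoplasmic reticulum, had no count at 17 °C and 1.79, 0.702 and 0.919 CPM at 27 °C, at least 4.59-fold higher. AT1G52560, annotated in the same family, had 2.01, 0.935 and 1.84 CPM at 27 °C, against 4.48, 2.70 and 2.44 CPM at 17 °C, and its log2 fold change of -0.9999 ± 0.42 was not called (edgeR adjusted p = 0.0502). It was called lower under 4 of 14 alternatives, among them the compared libraries alone (edgeR adjusted p = 0.0270). Of 20 cytosolic and nuclear chaperones and co-chaperones, 11 rose and 0 fell. ROF2, a heat-induced FKBP isomerase that binds HSP90, had 98.3, 101 and 89.6 CPM at 27 °C, against 21.9, 17.82 and 20.5 CPM at 17 °C and rose by 2.25 ± 0.07 (edgeR adjusted p = 8.7e-22). The heat-induced HSP70 gene had 264, 278 and 260.0 CPM at 27 °C, against 88.4, 92.9 and 88.9 CPM at 17 °C and rose by 1.57 ± 0.07, HSP90.1 rose by 1.99 ± 0.07, and HSA32, a protein of acquired heat tolerance, rose by 1.57 ± 0.16. The constitutive members HSC70-1, HSP90.2 and HSP90.3 had log2 fold changes of -0.03 ± 0.06, 0.00 ± 0.04 and 0.00 ± 0.04. HSC70-1 was also among the most densely read genes, with 0.742 counts per exon base at 27 °C and 0.694 at 17 °C, where the median over all genes with annotated exons was 0.0271 and the 99th percentile 0.379. The sources used here do not say whether each position of a gene was counted once. With counts corrected for that, an alternative chosen after the data were seen, HSC70-1 had a log2 fold change of 0.06 and was not called.

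**Figure D3:**
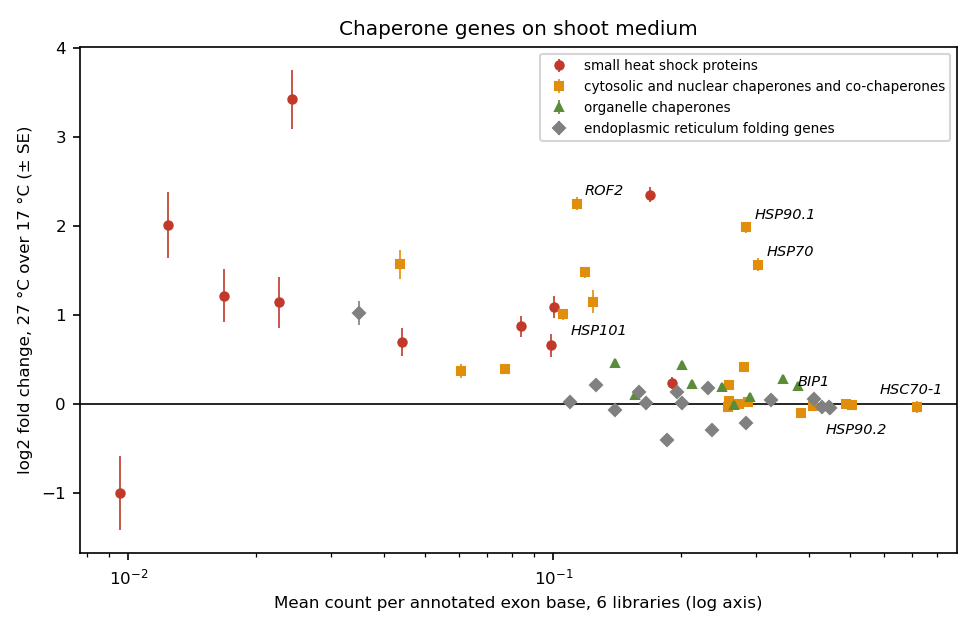
Log2 fold change (27 °C over 17 °C, ± SE) of chaperone genes with more than 3 counts in each group against their mean count per annotated exon base over the 6 libraries (log axis), by compartment. ROF2, HSP90.1 and HSP70 lie at 2.25 ± 0.07, 1.99 ± 0.07 and 1.57 ± 0.07, while HSP90.2, HSC70-1 and BIP1, at higher read density, lie near 0.

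Organelle chaperones rose in 6 of 9 cases by smaller amounts, led by the mitochondrial disaggregase gene CLPB4 at 0.46 ± 0.05 and the mitochondrial HSP90.6 at 0.44 ± 0.05. HSP90.5 of the chloroplast rose by 0.23 ± 0.04, and CLPB3 of the chloroplast was not called at 0.10 ± 0.05. Folding genes of the endoplasmic reticulum gave 5 rises and 3 falls among 18, with a median of 0.02. ERDJ3A, a J-domain co-chaperone, rose by 1.03 ± 0.14, while the disulfide isomerases PDIL1-1 and PDIL1-2 and the calreticulin CRT1b fell by 0.20 ± 0.04, 0.40 ± 0.05 and 0.29 ± 0.04. The HSP70 type chaperones BIP1 and BIP2 of this compartment were not called, at -0.03 ± 0.04 and -0.04 ± 0.03. Heat shock factors were divided, with 5 of 20 higher and 6 lower. HSFA3 and HSFA2, which sustain the heat response, rose by 1.41 ± 0.13 and 1.17 ± 0.25, with 33.5, 34.8 and 35.6 CPM at 27 °C, against 11.8, 10.8 and 16.4 CPM at 17 °C for HSFA3. HSFA1E, one of the master activators, fell by 1.3004 ± 0.12, and HSFC1, the single class C factor, had 12.1, 11.46 and 13.1 CPM at 27 °C, against 52.6, 53.2 and 54.9 CPM at 17 °C and fell by 2.13 ± 0.09 (edgeR adjusted p = 6.4e-19).

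Cold response genes were lower at 27 °C. Of 18 tested, 13 fell and 2 rose, with a median log2 fold change of -0.83 (-0.77 with the members of few counts at their bound or count ratio). The cold regulator CBF2, an activator of this group, had no count at 27 °C and 10 counts over the libraries at 17 °C, at least 3.63-fold lower. CBF factors bind the element with the core CCGAC, which was searched on both strands. It was found within 250 bases before the start in 11.97% of all 27443 promoters and in 7 of the 23 members of the list (30.4%). The share was alike before the small heat shock protein genes, with 4 of 14 (28.6%). The promoters of 3 members that hold 2 or 3 copies are shown with the core in capitals on either strand (GOLS3 was chosen for this after its values were seen), all from genes on the plus strand: RD29A (chr5:21240467-21240716), LTI30 (chr3:18940393-18940642) and GOLS3 (chr1:3019389-3019638).
RD29A: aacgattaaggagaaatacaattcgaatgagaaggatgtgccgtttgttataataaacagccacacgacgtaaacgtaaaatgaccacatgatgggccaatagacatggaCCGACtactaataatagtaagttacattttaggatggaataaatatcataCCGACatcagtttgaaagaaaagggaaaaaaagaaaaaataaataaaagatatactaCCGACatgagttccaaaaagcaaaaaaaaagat
LTI30: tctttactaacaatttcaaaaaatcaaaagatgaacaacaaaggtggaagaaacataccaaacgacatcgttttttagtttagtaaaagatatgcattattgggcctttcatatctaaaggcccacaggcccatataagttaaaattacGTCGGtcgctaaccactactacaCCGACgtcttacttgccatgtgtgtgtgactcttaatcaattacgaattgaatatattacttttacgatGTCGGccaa
GOLS3: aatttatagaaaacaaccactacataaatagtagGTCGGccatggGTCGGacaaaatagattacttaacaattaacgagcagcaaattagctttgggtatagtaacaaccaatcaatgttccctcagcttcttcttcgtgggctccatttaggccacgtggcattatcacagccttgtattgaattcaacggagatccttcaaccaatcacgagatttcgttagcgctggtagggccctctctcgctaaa
RD29A, a target of CBF factors and of abscisic acid, had 2.01, 1.403 and 2.76 CPM at 27 °C, against 46.0, 59.7 and 61.8 CPM at 17 °C. The groups were far apart, and RD29A fell by 4.73 ± 0.30 (edgeR adjusted p = 4.8e-08). LTI30, a dehydrin, fell by 2.55 ± 0.10, and GOLS3, which makes galactinol in the cold, fell by 1.22 ± 0.26, with means of 3.13 ± 0.285 CPM at 27 °C and 7.35 ± 0.885 CPM at 17 °C. KIN1 (AT5G15960; chromosome 5, 5209898 to 5210727), a small hydrophilic cold protein, had 0.223, 0 and 0 CPM at 27 °C, against 21.0, 21.3 and 21.7 CPM at 17 °C, a ratio of 279.7 times (95% counting interval 49.8 to 11089). Its close neighbour in sequence COR6.6 fell by 2.61 ± 0.09. ICE1, an activator of CBF genes, rose by 0.52 ± 0.08, and COR27, a cold-regulated clock-linked gene, rose by 0.57 ± 0.15. The RNA-binding protein genes GRP7 and GRP8 were not called, at -0.07 ± 0.04 and -0.06 ± 0.04, with 0.630 counts per exon base at 27 °C and 0.609 at 17 °C for GRP7. Among 12 fatty acid desaturases, which set how fluid membranes are, FAD8 of the plastid fell by 0.55 ± 0.12, FAD3 and ADS2 fell by 0.14 ± 0.04 and 0.16 ± 0.04, ADS1 rose by 1.03 ± 0.32, and FAD2 was not called at 0.06 ± 0.04.

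Genes of the Casparian strip, the lignified ring around endodermal cells, fell in 11 of 12 cases, 10 of them at least 2-fold. The median log2 fold change was -2.07, or -1.84 with the members of few counts at their bound or count ratio, and the summed level was 71.3 to 89.6 CPM at 27 °C and 188 to 194 CPM at 17 °C. PER64, the peroxidase that polymerises lignin in the strip, had 0.447, 0.468 and 0.230 CPM at 27 °C, against 8.96, 7.02 and 7.33 CPM at 17 °C, without overlap, and fell by 4.25 ± 0.43 (edgeR adjusted p = 7.3e-10). CASP2, a scaffold protein of the strip, fell by 2.87 ± 0.47. GSO1, the receptor kinase that senses gaps in the strip, fell by 2.103 ± 0.21, with 2.91, 3.74 and 2.99 CPM at 27 °C, against 15.3, 15.9 and 10.501 CPM at 17 °C.

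Suberin, the waxy polyester of endodermis and periderm, had lower transcripts throughout its pathway. Of 19 tested genes 18 fell and 0 rose, with a median of -1.34, and the summed level was 297 to 311 CPM at 27 °C and 599.8 to 663 CPM at 17 °C. The acyltransferases GPAT5 and GPAT7, which join suberin acids to glycerol, fell by 2.88 ± 0.34 and 4.59 ± 0.35, with 0.670, 0.468 and 0.460 CPM at 27 °C, against 14.4, 14.3 and 11.97 CPM at 17 °C for GPAT7. ASFT, which adds ferulate, had 11.4, 9.35 and 11.3 CPM at 27 °C, against 73.1, 74.3 and 65.9 CPM at 17 °C and fell by 2.73 ± 0.10 (edgeR adjusted p = 3e-20). MYB39, an activator of the pathway, fell by 3.05 ± 0.38. FACT, which adds caffeate, had 4.25, 5.85 and 6.21 CPM at 27 °C, against 7.31, 7.02 and 6.59 CPM at 17 °C and was the member not called, at -0.36 ± 0.31.

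Xylem and wall genes were lower more often than higher. Of 18 tested xylem transcription factors 3 rose and 12 fell, and the NAC genes of vessels divided: VND1, VND2 and VND3 rose by 0.50 ± 0.07, 0.27 ± 0.09 and 0.41 ± 0.10, while VND4, VND5, VND6 and VND7 fell by 0.74 ± 0.09, 0.59 ± 0.09, 0.68 ± 0.13 and 0.85 ± 0.11 (these 4 were named after their values were seen). The fiber and wall factors SND2 and MYB103 fell by 1.201 ± 0.14 and 2.02 ± 0.29. SND3, a factor of the same kind, had 13.9, 14.97 and 12.6 CPM at 27 °C, against 37.0, 33.8 and 38.8 CPM at 17 °C and fell by 1.405 ± 0.12. Secondary wall and vessel enzymes fell in 18 of 21 cases with a median of -0.39. The largest of these falls were in genes of vessel cell death, the nuclease BFN1 at 1.43 ± 0.11 and the metacaspase MC9 at 0.86 ± 0.06, and in the xylan genes GAUT12 and FRA8 at 0.92 ± 0.10 and 0.85 ± 0.14. FLA12, a fasciclin-like wall protein, was the 1 member that rose, by 1.01 ± 0.15, with 23.7, 20.8 and 27.4 CPM at 27 °C, against 9.20, 12.4 and 14.2 CPM at 17 °C. In the supply of lignin monomers, 15 of 17 genes fell, with a median of -0.42. PAL4, one of the genes for the entry enzyme, had 10.3, 11.46 and 10.6 CPM at 27 °C, against 98.6, 102 and 100.4 CPM at 17 °C and fell by 3.21 ± 0.11, while PAL1 and PAL2 fell by 0.66 ± 0.04 and 0.88 ± 0.04. FAH1, the hydroxylase of the syringyl and sinapate branch, rose by 1.45 ± 0.13, with 47.4, 53.5 and 57.0 CPM at 27 °C, against 21.7, 17.55 and 18.3 CPM at 17 °C, and the groups did not overlap. Of 15 tested flavonoid and anthocyanin genes, which draw on the same pathway, 8 fell and 1 rose. F3H and TT7, which hydroxylate flavonoids, fell by 0.93 ± 0.09 and 2.22 ± 0.23, and GL3, a bHLH regulator, fell by 2.24 ± 0.38. AT4G14090, a glucosyltransferase of anthocyanins, rose by 1.14 ± 0.13. HY5, a light-signalling activator of the pathway, was not called, at -0.20 ± 0.08.

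**Figure D4:**
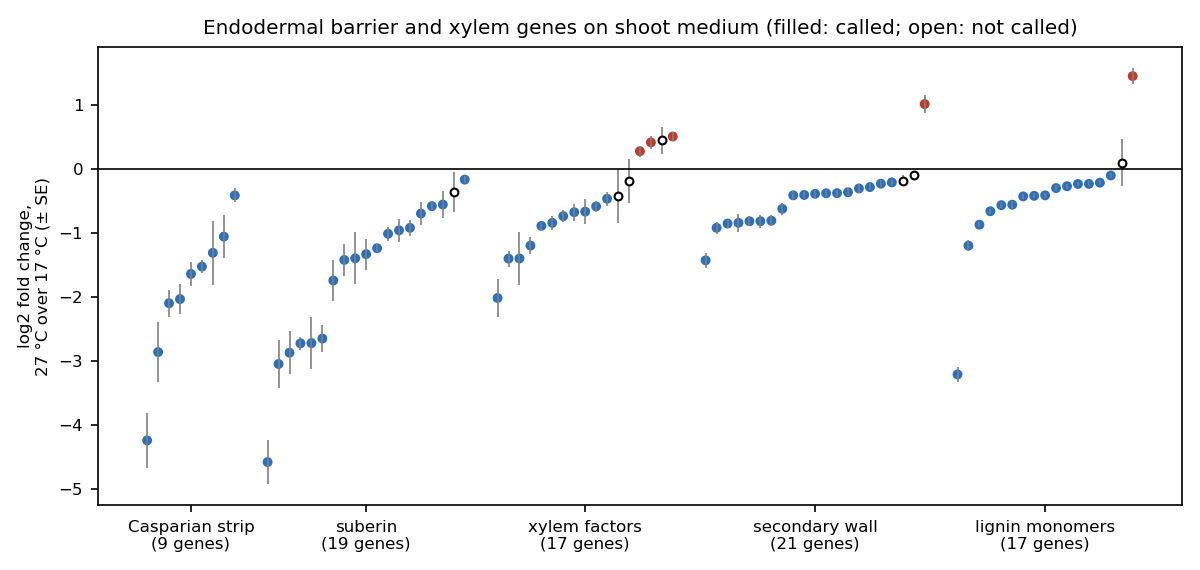
Log2 fold change (27 °C over 17 °C, ± SE) of the tested genes of 5 groups with more than 3 counts at each temperature, sorted within each group; filled points were called and open points were not. PER64 and GPAT7 lie lowest among the Casparian strip and suberin genes, at -4.25 ± 0.43 and -4.59 ± 0.35, most secondary wall and lignin genes lie a little below 0, and FAH1 and FLA12 stand above it at 1.45 ± 0.13 and 1.01 ± 0.15.

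Procambium and phloem genes moved by small amounts. Of 26, all of them tested, 4 rose and 12 fell, with a median of -0.13 (-0.07 with the 2 members of few counts at their bound or count ratio). In the procambium, the peptide gene CLE41, its receptor gene PXY and their target WOX4 rose by 0.30 ± 0.07, 0.14 ± 0.03 and 0.16 ± 0.05, and WOX14 fell by 0.57 ± 0.12. The NAC factors NAC045 and NAC086, which clear the nucleus from sieve elements, fell by 0.91 ± 0.17 and 0.88 ± 0.12, with 16.99, 14.97 and 12.9 CPM at 27 °C, against 27.4, 26.46 and 28.6 CPM at 17 °C for NAC086. HB-8 and MP, regulators of early vascular cells, were not called, at -0.01 ± 0.04 and 0.05 ± 0.04. Epidermis genes gave 4 rises and 5 falls of 12. The homeodomain factors ATML1 and PDF2, which specify epidermis, fell by 2.06 ± 0.25 and 1.19 ± 0.16, and so did PDF1, a wall protein gene of the outer layer, by 1.26 ± 0.29. HDG11 of the same homeodomain family rose by 0.77 ± 0.13, with 22.1, 20.8 and 24.1 CPM at 27 °C, against 14.4, 10.8 and 13.9 CPM at 17 °C, as did the MYB gene MYB106 by 0.70 ± 0.15. Cuticle genes split as well, with 3 of 22 higher and 9 lower. BDG1, a hydrolase needed for cutin, had 24.6, 22.7 and 29.4 CPM at 27 °C, against 5.42, 5.13 and 6.11 CPM at 17 °C and rose by 2.19 ± 0.17, and the cuticle lipid exporter ABCG11 rose by 0.83 ± 0.10. KCS6 and CER1, of wax synthesis, fell by 1.19 ± 0.11 and 1.54 ± 0.44, and the cutin genes GPAT6 and CYP86A4 fell by 1.89 ± 0.24 and 3.07 ± 0.37.

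Nuclear genes of the photosystems and of Rubisco rose in 30 of 35 cases and none fell, with a median log2 fold change of 0.62. Their summed level was 1832 to 1918 CPM at 27 °C and 1183 to 1235 CPM at 17 °C. PSBQ-2, of the oxygen-evolving complex, had 26.8, 26.9 and 27.8 CPM at 27 °C, against 3.77, 4.32 and 4.40 CPM at 17 °C, and the groups lay far apart. It rose by 2.70 ± 0.29, and the antenna genes LHCB4.2 and LHCB1.4 rose by 1.71 ± 0.16 and 2.28 ± 0.40. RBCS1A, LHCB1.3 and LHCB2.1 had log2 fold changes of 0.38 ± 0.18, 0.24 ± 0.24 and 0.60 ± 0.44 with wide errors and were not called in this fit of all groups. They were called with the compared SIM libraries alone. Among 19 greening regulators and chlorophyll enzymes, 6 rose and 2 fell. GUN4, which activates the magnesium chelatase, had 37.1, 32.0 and 35.2 CPM at 27 °C, against 16.7, 15.9 and 17.83 CPM at 17 °C and rose by 1.04 ± 0.16, and the chlorophyll enzymes PORB and PCB2 rose by 0.59 ± 0.08 and 0.75 ± 0.13. GLK2, an activator of photosystem genes, rose by 2.17 ± 0.25, whereas CGA1, a cytokinin-responsive GATA factor of chloroplast growth, had 0.894, 0.702 and 0 CPM at 27 °C, against 21.5, 19.2 and 17.3 CPM at 17 °C and fell by 5.10 ± 0.46 (edgeR adjusted p = 2.4e-08). In nitrogen uptake and assimilation, 6 of 23 genes rose and 11 fell. The plastid enzymes of ammonium assimilation, GLU1 and GS2, rose by 2.84 ± 0.40 and 1.38 ± 0.10, with 69.3, 64.8 and 72.2 CPM at 27 °C, against 26.4, 27.8 and 24.9 CPM at 17 °C for GS2. The cytosolic enzymes GLN1;4 and ASN1 fell by 1.64 ± 0.12 and 4.14 ± 0.84, with 0.894, 0.702 and 0.919 CPM at 27 °C, against 16.5, 11.6 and 17.3 CPM at 17 °C for ASN1, which makes asparagine. The nitrate transporter NRT1.1 rose by 0.72 ± 0.10, and the ammonium transporter AMT1;1 fell by 0.78 ± 0.05.

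Auxin genes had no single direction. Of 8 tested synthesis genes 1 rose (YUC4) and 3 fell. YUC8 had 0.447, 0.234 and 0 CPM at 27 °C, against 4.72, 4.05 and 6.84 CPM at 17 °C, a ratio of 22.9 times (95% counting interval 7.47 to 114), and YUC6, another flavin monooxygenase of the pathway, fell by 0.51 ± 0.10. Of 14 transport genes 5 rose and 6 fell: the efflux carrier PIN6 rose by 0.74 ± 0.05, the root efflux carrier PIN2 fell by 1.18 ± 0.13, and the influx carrier LAX3 had 37.5, 40.9 and 35.6 CPM at 27 °C, against 107, 100.2 and 96.0 CPM at 17 °C and fell by 1.41 ± 0.07. Of 24 Aux/IAA repressors 3 rose and 8 fell. IAA7 had 1.34, 2.105 and 2.299 CPM at 27 °C, against 17.9, 19.4 and 14.7 CPM at 17 °C, without overlap, and fell by 3.16 ± 0.36, IAA3 fell by 0.64 ± 0.07, and IAA18 rose by 0.62 ± 0.12. In auxin conjugation, 6 of 10 genes rose and 3 fell, led by GH3.9, GH3.1 and GH3.3, amidosynthetase family genes, at 1.82 ± 0.30, 0.79 ± 0.14 and 0.50 ± 0.06. AT1G14130, an auxin oxidase gene, fell by 0.41 ± 0.05.

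Cytokinin genes fell more often than they rose. Of 9 type-A response regulators, the early targets and brakes of the pathway, 5 fell and 0 rose, with a median of -0.17. ARR16 had 9.39, 7.25 and 6.90 CPM at 27 °C, against 20.04, 19.98 and 15.6 CPM at 17 °C and fell by 1.23 ± 0.23, ARR3 fell by 2.23 ± 0.15, ARR15 fell by 0.26 ± 0.07, and ARR7 was not called at -0.04 ± 0.06. Of 13 receptors, transfer proteins and type-B regulators, 1 rose and 4 fell. AHK4, a receptor, and AHP1, a phosphotransfer protein, fell by 0.30 ± 0.03 and 0.70 ± 0.08, and the type-B factors went both ways: ARR10 fell by 0.36 ± 0.05 and ARR14 rose by 0.76 ± 0.15. Of 19 genes of synthesis and breakdown, 1 rose and 6 fell. CYP735A2, which makes trans-zeatin forms, had 29.1, 21.7 and 17.9 CPM at 27 °C, against 104, 102 and 101 CPM at 17 °C, the groups being wide apart, and fell by 2.15 ± 0.19. LOG4 and LOG7, which release active cytokinin, fell by 1.26 ± 0.23 and 1.45 ± 0.20, and the cytokinin oxidase CKX6 rose by 0.32 ± 0.05.

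Gibberellin genes gave 4 rises and 6 falls of 19. GA3OX1, which makes the active hormone, rose by 1.08 ± 0.24, the DELLA repressors GAI and RGA rose by 0.70 ± 0.13 and 0.39 ± 0.06, and the inactivating enzyme GA2OX6 fell by 1.17 ± 0.14. Brassinosteroid genes gave 5 and 5 of 16. BR6OX2 and CYP90D1, late enzymes of synthesis, rose by 1.71 ± 0.17 and 1.03 ± 0.12, with 31.1, 21.7 and 21.4 CPM at 27 °C, against 7.31, 7.83 and 7.57 CPM at 17 °C for BR6OX2. ROT3, of the same enzyme family, fell by 1.21 ± 0.11, and CYP72C1, which inactivates the hormone, had 32.6, 31.3 and 25.5 CPM at 27 °C, against 96.7, 102 and 86.9 CPM at 17 °C and fell by 1.67 ± 0.09. Of 22 ethylene genes 3 rose and 10 fell. The ACC oxidases, which make ethylene, moved apart: ACO1 rose by 1.02 ± 0.11, while ACO5 and AT1G12010 fell by 1.95 ± 0.14 and 4.16 ± 0.58, with 18.8, 20.6 and 16.3 CPM at 27 °C, against 67.9, 76.7 and 71.8 CPM at 17 °C for ACO5. Of 21 abscisic acid genes 11 fell and 2 rose. NCED5, a rate-setting enzyme of synthesis, had 6.70, 8.42 and 8.74 CPM at 27 °C, against 29.7, 35.4 and 26.9 CPM at 17 °C and fell by 1.94 ± 0.16, ABI2, a phosphatase of the pathway, fell by 0.98 ± 0.11, and the receptor gene PYL4 rose by 0.27 ± 0.06.

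Jasmonate genes gave 4 rises and 8 falls of 22. CYP94B3, which inactivates jasmonoyl-isoleucine, had 0.447, 1.64 and 1.15 CPM at 27 °C, against 23.8, 23.8 and 23.7 CPM at 17 °C, the groups being far apart, and fell by 4.43 ± 0.21 (edgeR adjusted p = 8.2e-18). The repressor gene JAZ1 fell by 0.68 ± 0.07, and VSP1, a storage protein gene of the response, rose by 0.40 ± 0.07. Salicylate genes gave 3 and 5 of 14: WRKY70 and EDS1 rose by 1.72 ± 0.20 and 0.37 ± 0.05, and PBS3, SARD1 and CBP60G, which raise salicylate synthesis, fell by 3.25 ± 0.57, 2.28 ± 0.40 and 0.93 ± 0.15.

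In light and temperature signalling, 6 of 19 genes rose and 5 fell. PIF1 and PIF3, bHLH factors that phytochromes destroy, rose by 2.76 ± 0.35 and 0.83 ± 0.11, with 10.7, 7.48 and 11.03 CPM at 27 °C, against 1.65, 0.540 and 1.95 CPM at 17 °C for PIF1. The phytochrome genes PHYA and PHYB, of which PHYB is a known thermosensor, were not called, at 0.08 ± 0.03 and -0.07 ± 0.04, and PHYD fell by 0.26 ± 0.05. ELF3, a clock protein with a thermosensing role, fell by 0.28 ± 0.04. HAT1 and HB-2, both HD-ZIP genes of shade responses, moved apart, with HAT1 higher by 0.996 ± 0.15 and HB-2 falling by 0.58 ± 0.09. Of 18 clock genes 3 rose and 6 fell. The morning genes PRR9 and CCA1 fell by 1.01 ± 0.17 and 0.44 ± 0.05, the evening genes LUX and GI rose by 0.41 ± 0.07 and 0.26 ± 0.05, and TOC1 was not called at 0.07 ± 0.04. The core of the evening element, a clock site (AATATCT, searched on both strands), stood before 10 of these 18 genes and before 8 of the 23 cold response genes, against 10.003% of all promoters.

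Cell cycle genes were called in both directions. Of 31 cyclins, kinases and inhibitors 5 rose and 7 fell, a share near that over all genes tested. The D-type cyclins CYCD1;1, CYCD3;3 and CYCD3;1 rose by 0.84 ± 0.12, 0.61 ± 0.09 and 0.25 ± 0.04. CYCD6;1, known from the formative division of the root ground tissue, had 8.94, 7.25 and 7.13 CPM at 27 °C, against 20.7, 20.5 and 22.5 CPM at 17 °C and fell by 1.45 ± 0.18, and the mitotic cyclin CYCB2;1 fell by 0.60 ± 0.16. Of 18 DNA replication genes 4 rose, each by at most 0.30 ± 0.07 (PCNA2), and none fell. The share that rose was near the 20.7% over all genes tested, and 14 were not called. Of 24 genes for H2A.Z, DNA methylation and Polycomb proteins 3 rose and 4 fell. JMJ30, a histone demethylase gene under the clock, rose by 0.997 ± 0.08, with 48.7, 47.0 and 54.0 CPM at 27 °C, against 22.6, 26.7 and 25.9 CPM at 17 °C, and the DNA glycosylase ROS1 fell by 0.42 ± 0.07.

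Cell wall, transport and metabolic genes held some of the clearest contrasts between paralogs. Among the tonoplast aquaporins, TIP1;1 had 57.9, 59.6 and 54.7 CPM at 27 °C, against 7.54, 7.83 and 7.57 CPM at 17 °C and rose by 2.90 ± 0.10, TIP2;1 rose by 1.61 ± 0.05, TIP4;1 fell by 4.09 ± 0.40, and TIP1;2 was not called at -0.06 ± 0.04. Among expansins, which loosen walls, EXPA17 and EXPA14 fell by 4.41 ± 0.31 and 2.204 ± 0.22, EXPA11 had no count at 27 °C and was at least 16.7-fold lower, EXPA6 rose by 0.38 ± 0.06, and EXPA1 was not called at 0.01 ± 0.04, with 0.595 counts per exon base at 27 °C and 0.542 at 17 °C. The xyloglucan transglucosylase genes XTH32 and XTH19 rose by 2.09 ± 0.23 and 1.47 ± 0.20, and XTH33 and XTH31 fell by 2.80 ± 0.22 and 1.33 ± 0.24. The primary wall cellulose synthases CESA1 and CESA3 were not called, at -0.04 ± 0.03 and -0.04 ± 0.04. Of 26 genes of sugar transport, sucrose use and starch, 14 fell and 5 rose. SWEET15, a sugar exporter of ageing tissue, had 0, 1.17 and 0 CPM at 27 °C, against 24.8, 26.7 and 20.03 CPM at 17 °C and fell by 5.85 ± 0.53, GPT2, a glucose phosphate carrier of plastids, differed by a ratio of 40.3 times (95% counting interval 10.8 to 339), and GBSS1, a starch synthase, rose by 3.39 ± 0.68. Sucrose synthase SUS5 fell by 1.36 ± 0.09, with 26.1, 20.1 and 20.5 CPM at 27 °C, against 58.9, 54.5 and 58.1 CPM at 17 °C. PS2, a phosphatase induced by phosphate shortage, had 0.670, 0.935 and 1.38 CPM at 27 °C, against 34.0, 40.8 and 28.6 CPM at 17 °C and fell by 5.06 ± 0.27, and the phosphate transporter PHT1;1 fell by 1.495 ± 0.24. In iron supply, FRU, the bHLH activator of uptake, had no count at 27 °C and 4.72, 2.97 and 1.71 CPM at 17 °C, at least 13.8-fold lower, and the ferritin gene FER2 rose by 1.097 ± 0.20. The alternative oxidase genes moved apart: AOX1B had no count at 27 °C and 5.42, 5.401 and 6.11 CPM at 17 °C, at least 24.7-fold lower, while AOX1C had 24.1, 20.3 and 19.8 CPM at 27 °C, against 5.19, 5.67 and 6.35 CPM at 17 °C and rose by 1.898 ± 0.16, and AOX1A rose by 0.21 ± 0.06. Of 22 glucosinolate genes 2 rose and 9 fell, with falls of 1.17 ± 0.07 in PEN2, a myrosinase of defence, and 1.09 ± 0.06 in NAI1, which controls the endoplasmic reticulum bodies that store such enzymes.

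Gene families read from the wording of the annotation held more falls than rises in several enzyme classes. Of 47 tested glutathione S-transferases 29 fell and 3 rose. GSTF7 had 6.26, 7.95 and 6.44 CPM at 27 °C, against 50.5, 48.6 and 45.4 CPM at 17 °C and fell by 2.80 ± 0.15. Of 104 UDP-glycosyltransferases 50 fell and 17 rose, and of 51 WRKY factors 26 fell and 7 rose, among them WRKY33 by 1.02 ± 0.09. UGT84A4 fell by 3.15 ± 0.15 and HYR1 of the same family rose by 3.91 ± 0.32. Of 54 peroxidases 27 fell and 15 rose. AT2G18980 had 0.894, 2.105 and 3.45 CPM at 27 °C, against 49.99, 51.3 and 50.8 CPM at 17 °C, without overlap, and fell by 4.55 ± 0.20, whereas AT1G34510 rose by 2.12 ± 0.22. Of 159 cytochromes P450 59 fell and 40 rose: CYP71A12, of camalexin and related defence compounds, had 0.223, 0.702 and 0.690 CPM at 27 °C, against 30.2, 29.7 and 26.9 CPM at 17 °C and fell by 5.68 ± 0.94, CYP702A1 fell by 5.56 ± 0.30, and CYP708A3 rose by 3.88 ± 0.17. Of 43 pectinesterase and inhibitor type genes 18 fell and 4 rose, with AT1G62760 falling by 6.69 ± 0.29. In the MADS-box group, 7 of 31 were higher and 6 lower, shares near those over all genes tested. FLC, a repressor of flowering, had 6.70, 8.42 and 6.90 CPM at 27 °C, against 21.9, 18.4 and 16.1 CPM at 17 °C and fell by 1.36 ± 0.15. Its relative MAF3 fell by 0.65 ± 0.10, and MAF4 rose by 0.80 ± 0.19. PI, a petal and stamen factor, had 56.8, 56.6 and 55.2 CPM at 27 °C, against 24.3, 24.0 and 25.2 CPM at 17 °C and rose by 1.196 ± 0.09. AT1G17310, annotated as a MADS-box factor, had 0.894, 1.64 and 1.61 CPM at 27 °C, against 28.8, 28.6 and 23.2 CPM at 17 °C and fell by 4.26 ± 0.23.

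The same temperatures were also compared after CIM, before transfer to SIM. There 8823 of the 20704 genes were called (42.6%), 4471 higher (21.6%) and 4352 lower (21.0%). The 2 comparisons share no library, and the difference between their temperature effects, tested as a contrast in the same edgeR fit, was called for 3828 genes (18.5%), with 1711 (8.26%) more positive on SIM and 2117 (10.2%) more negative. Library 3 of CIM at 17 °C stood apart from its group, with a chi-square per gene of 1.37 and 1.26 against the other two, and without it and 1 library at 0 h the count was 3327. Library 2 of CIM at 27 °C had counts for 24396 genes, against 22350 and 22343 in its group. Its chi-square per gene was 0.741 and 0.877, and no alternative left it out. Photosystem genes differed between the media. On CIM 3 rose and 5 fell with a median of -0.16, against 30 rises and a median of 0.62 on SIM, and the effects differed for 21 of 35, all more positive on SIM. PSBQ-2 had a log2 fold change of -1.17 ± 0.64 on CIM and 2.70 ± 0.29 on SIM, a difference of 3.87 ± 0.72 (edgeR adjusted p = 0.00055). Small heat shock proteins gave 7 rises and 4 falls on CIM, against 12 and 0 on SIM, and the effects differed for 8 upward and 2 downward. HSP90.1 and ROF2 had 0.16 ± 0.05 and 0.48 ± 0.06 on CIM, and their effects differed by 1.83 ± 0.08 and 1.78 ± 0.10.

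Suberin genes were lower at 27 °C on both media, by more on CIM. All 19 tested members fell on CIM with a median of -3.73, and on SIM the median was -1.34, so that the difference was called as more positive on SIM for 10 and more negative for 2. ASFT had -4.71 ± 0.17 on CIM and -2.73 ± 0.10 on SIM, a difference of 1.98 ± 0.27. FACT, not called on SIM, had -5.37 ± 0.20 on CIM and differed by 5.01 ± 0.46. Casparian strip genes had 4 falls on CIM and 11 on SIM, and the effects differed for 4, all more negative on SIM. On CIM 5 of the 12 had at most 3 counts in a group, which limits what could be called there. The CIM median was -1.09, or -1.15 with those members at their bound or count ratio. PER64 was near 0 on CIM, with 0.225 ± 0.230 CPM at 27 °C and 0.0803 ± 0.139 CPM at 17 °C. Root-type regulators gave 10 rises and 7 falls on CIM, and the effects differed for 11 more negative and 3 more positive on SIM. PLT1 had 0.26 ± 0.06 on CIM and -4.33 ± 0.43 on SIM, a difference of -4.59 ± 0.43 (edgeR adjusted p = 1.1e-09). Procambium and phloem genes gave 16 rises and 4 falls on CIM, and 19 of 26 effects were more negative on SIM and 0 more positive. NAC086 had 0.63 ± 0.22 on CIM and -0.88 ± 0.12 on SIM. Several groups kept their direction on CIM. Secondary wall and vessel enzymes gave 18 falls and 0 rises there with a median of -0.50, and xylem factors 10 falls and 4 rises with a median of -0.93. Cold response genes gave 8 falls and 0 rises on CIM, and leaf polarity genes 8 rises and 2 falls. In nitrogen assimilation 16 of 23 fell and 1 rose on CIM, and GS2 had -0.45 ± 0.15 there. Among the shoot genes, WUS had no count on CIM at either temperature. CLV1 had -0.39 ± 0.13 on CIM and 0.95 ± 0.10 on SIM, a difference of 1.34 ± 0.17 (edgeR adjusted p = 1.7e-07). The effects on BLR were 1.49 ± 0.14 on CIM and 1.02 ± 0.09 on SIM, and on KNAT7 -1.07 ± 0.13 on CIM and -1.38 ± 0.11 on SIM, and these differences were not called (edgeR adjusted p = 0.067 and 0.33). Of the 4 root cap genes tested, 4 fell on CIM, and AT1G65570 had 0.601 ± 0.318 CPM at 27 °C and 118 ± 11.2 CPM at 17 °C there.

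**Figure D5:**
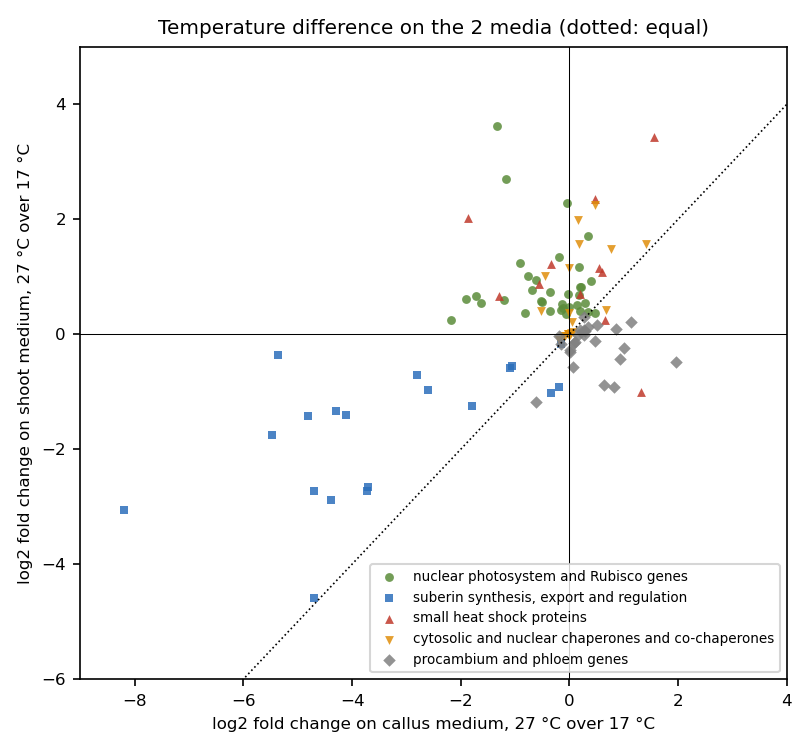
Log2 fold change (27 °C over 17 °C) on SIM against that on CIM for genes of 5 groups with more than 3 counts at each temperature on SIM, with the dotted line where both are equal. Photosystem genes and many chaperones lie above the line, most suberin genes lie left of and above it with FACT at -5.37 ± 0.20 on CIM, and procambium and phloem genes lie slightly below it.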

How the data were processed

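RNA-seq counts of 15 libraries (3 each for SIM at 27 °C, SIM at 17 °C, CIM at 27 °C, CIM at 17 °C and explants at 0 h) were read from 1 deposited table. It holds whole-number counts per gene for 33602 genes, not scaled for depth, as the authors deposited them. Libraries were made with a stranded mRNA kit, per the labels' protocols. Bowtie2 2.3.4.3, SAMtools 1.9, bedtools 2.26.0, FastQC 0.11.7 and the TAIR10 build are named, without role or order, in the submitters' processing notes; use of strand, multiply placed reads and the counting of exons or whole genes are not given in the sources used here. Groups come from the titles, and 0 columns were left unmapped.

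The counts were tested as deposited with edgeR 4.0.16 (R 4.3.3; filterByExpr, TMM, robust quasi-likelihood fit of all 5 groups, Benjamini-Hochberg adjustment over all genes tested). The steps had first been run on simulated counts. Their spread was set above counting noise, unlike that of the compared libraries, so that run does not show how the test performs on these data. Alternatives were DESeq2 1.42.0, DESeq2 size factors, other filters, the 6 compared libraries alone, a replicate block, and leaving out each compared library. Total counts of 3679115 to 4319405 per compared library set the precision of low genes.

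Genes are named by this rule: the 12 largest rises and the 12 largest falls with no overlap of groups at a mean of at least 2 CPM; in each of 58 gene lists (1084 entries), up to 4 called members per direction by size at 2 CPM, up to 3 uncalled members of highest CPM, and called members with at most 3 counts in 1 group; and in families matched by annotation wording, up to 3 per direction at 5 CPM. Some items that this rule names are not reported here. The gene lists and the genes of this report were chosen with earlier results of these data known. Gene positions are those of the deposited table (TAIR10), and names come from the table and from RefSeq, which held 32835 of the 33602 identifiers. Promoters are the 250 bases before gene starts in RefSeq's annotation of TAIR10.1. Figures were drawn with matplotlib 3.10.9.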

Additional observations from a re-analysis of the deposited data

Results flagged for a closer look

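The effect of 27 °C over 17 °C on SIM was set against the same effect on CIM for the genes described above. With more than 3 counts in each of the 4 groups, 132 of 260 genes differed between the media by the contrast in the edgeR fit (adjusted p of at most 0.05). These genes were chosen for their changes on SIM, so nothing is read from this count beside the 18.5% over all genes tested. Values are differences of log2 fold changes, SIM minus CIM. The sign of a difference does not give the direction on SIM. AT1G65570, with a positive difference, had -2.31 on SIM and -7.52 on CIM. FACT, ASFT, F3H, GPAT6, XTH31, RAX2, RAX3 and MC9 were likewise below 0 on both media. RHD6, with a negative difference, had 0.96 on SIM and 2.74 on CIM. The cause of the differences was not tested.

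Among shoot stem cell, homeobox, boundary and organ growth regulators, the effect was more positive on SIM by 2.43 for RAX3, 1.34 for CLV1, 1.05 for LEP, 1.05 for KNAT2, 0.93 for TCP3, 0.90 for TCP24, 0.61 for ZPR4, 0.57 for RAX2, 0.47 for KAN2, 0.26 for ARF4 and 0.26 for RPK2. Those more negative on SIM were -2.76 for PUCHI, -1.496 for CYP78A9, -1.41 for GIF1, -0.28 for BAM3, -0.25 for HAM2, -0.24 for Rap2.6L and -0.17 for BAM1. Among root-type regulators, root cap and root hair genes, the effect was more positive on SIM by 5.20 for AT1G65570 and 0.90 for LBD16. Negative differences were -4.59 for PLT1, -3.86 for LBD33, -2.45 for BBM, -1.78 for RHD6, -1.47 for CPC, -0.57 for WOX11 and -0.32 for AIL6. Among chaperones and heat shock factors, the effect was more positive on SIM by 2.05 for HSFA2, 1.88 for AT5G51440, 1.86 for AT1G53540, 1.83 for HSP90.1, 1.78 for ROF2, 1.75 for ERDJ3A, 1.39 for HSP70 and 0.50 for HSP17.4. Those more negative on SIM were -2.32 for AT1G52560 and -1.94 for HSFC1. Among cold and lipid genes, the effect was more positive on SIM by 0.44 for ICE1. Negative differences were -2.76 for RD29A and -1.42 for LTI30. Among suberin, Casparian strip, xylem, wall, lignin and flavonoid genes, the effect was more positive on SIM by 5.01 for FACT, 2.65 for FAH1, 1.98 for ASFT, 1.54 for F3H, 0.84 for FLA12 and 0.55 for MC9. Those more negative on SIM were -0.60 for VND1, -0.52 for VND5 and -0.41 for VND2. Among vascular, epidermis and cuticle genes, the effect was more positive on SIM by 2.18 for GPAT6, 1.81 for ER, 1.63 for BDG1, 0.65 for HDG11 and 0.57 for ABCG11. Negative differences were -2.90 for CYP86A4, -1.82 for ATML1, -1.74 for NAC045, -1.51 for NAC086, -1.39 for KCS6, -1.27 for PDF1, -1.16 for PDF2, -0.64 for WOX14, -0.34 for WOX4, -0.23 for MP, -0.20 for PXY and -0.17 for HB-8. Among photosystem, greening and nitrogen genes, the effect was more positive on SIM by 3.87 for PSBQ-2, 3.76 for GLU1, 2.69 for GUN4, 2.42 for LHCB1.3, 2.32 for LHCB1.4, 1.88 for GLK2, 1.84 for GS2, 1.401 for NRT1.1, 1.36 for LHCB4.2 and 0.81 for PORB. Those more negative on SIM were -1.26 for GLN1;4.

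Among auxin genes, the effect was more positive on SIM by 1.96 for GH3.9, 1.14 for GH3.1, 0.75 for IAA18 and 0.59 for GH3.3. Negative differences were -1.08 for YUC6, -0.46 for AT1G14130 and -0.35 for LAX3. Among cytokinin genes, it was more negative on SIM, with differences of -2.31 for ARR3, -1.76 for CYP735A2, -1.304 for ARR15, -1.02 for LOG4, -0.57 for AHP1, -0.41 for ARR7 and -0.23 for ARR10. Among gibberellin, brassinosteroid, ethylene and abscisic acid genes, the effect was more positive on SIM by 1.88 for GA3OX1, 1.55 for BR6OX2, 0.60 for GAI, 0.53 for CYP90D1, 0.44 for PYL4 and 0.42 for RGA. Values below 0 in this group were -3.35 for AT1G12010, -1.26 for ACO5, -1.01 for ROT3, -0.91 for CYP72C1, -0.77 for GA2OX6 and -0.66 for ABI2. Among jasmonate, salicylate, glucosinolate, light and clock genes, the effect was more positive on SIM by 3.34 for VSP1, 1.94 for PIF1 and 0.80 for HAT1. In the same set, values below 0 were -4.47 for CYP94B3, -0.55 for NAI1, -0.51 for JAZ1 and -0.34 for PEN2. Among cell cycle and chromatin genes, the effect was more positive on SIM by 1.43 for CYCD1;1 and 0.51 for JMJ30. Values below 0 in this group were -0.97 for CYCD6;1 and -0.52 for ROS1. Among wall loosening, aquaporin, sugar, phosphate, iron and oxidase genes, the effect was more positive on SIM by 3.605 for TIP1;1, 2.72 for XTH31, 1.32 for XTH19, 0.59 for TIP2;1, 0.44 for EXPA6, 0.44 for TIP1;2 and 0.41 for AOX1A. In the same set, values below 0 were -2.57 for SWEET15, -2.19 for SUS5, -2.13 for PS2 and -0.98 for PHT1;1. Among genes of the annotation families, the effect was more positive on SIM by 4.02 for CYP708A3. Values below 0 in this group were -5.14 for AT1G62760, -3.89 for AT2G18980, -2.51 for GSTF7, -1.59 for AT1G17310, -1.04 for UGT84A4 and -0.96 for FLC.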

How the results depend on the processing

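The count of 9037 genes called stayed within 1.5 times under 15 alternatives. It was 7231 with DESeq2's Wald test, 9030 with DESeq2 size factors, 8869 of 19362 genes with the compared libraries alone, 9321 with a filter of 1 CPM, 9091 of 27260 with no filter, and 7907 to 8206 leaving out 1 compared library. The count at 2-fold was 2105 to 2883 and was 2421 to 2494 leaving out 1 compared library, and that of the difference between media was 2902 to 4181, or 3390 to 3513 leaving out 1. Of the 58 gene lists, 3 moved by more than 1.5 times: with DESeq2's Wald test the endoplasmic reticulum folding genes had 4 called in place of 8, auxin transport 7 in place of 11 and DNA replication 2 in place of 4. Leaving out 1 library gave 4 to 8 for endoplasmic reticulum folding (4 without library 3 at 17 °C) and 2 to 4 for DNA replication (2 without library 2 at 27 °C). The cause was not tested. No called gene named in the text turned its direction under any of these alternatives.

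Of 310 named genes, 288 kept their side of the threshold throughout, 12 lost the call somewhere and 10 gained it. WOX4, CYP78A9 and WOX5 each lost it under 5 alternatives, PLT5 and ADS1 under 4, VND2 under 3, YAB3 and CER1 under 2, and RPK2, SCRM2, ARR15 and FAD3 under 1, with adjusted p of up to 0.131. RBCS1A, LHCB1.3 and LHCB2.1 were called with the compared libraries alone and without the 2 libraries outside SIM that stood apart. That alternative, a filter of 5 CPM (8635 called) and counts corrected for positions counted once (9638 called) were chosen after seeing the data.

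With the replicate number as a block, 9019 genes were called, 2495 of them at 2-fold, and 3793 differed between the media. The block moved no count of a list by more than 1.5 times. Libraries with the same number deviated from their group means with r of 0.0364, 0.0954 and 0.0670 across 17914 genes, which are not independent replicates, against -0.106 to 0.0398 for different numbers. The same-number values were small but all above 0. They do not settle whether the numbers mark pairs, and the main fit used no block. At these depths a gene with no count in a group has an upper limit of 3 counts over its 3 libraries, and differences below it were not detectable.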
